A study of Mus musculus with 6 samples.

Results

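Transcript levels of 9 genes of the tight junction were examined in the olfactory epithelium, the lining of the nose in which odours are sensed. The genes were the claudins Cldn1, Cldn3, Cldn4, Cldn5, Cldn7, Cldn8 and Cldn10, occludin (Ocln) and the scaffold gene Tjp1, which encodes ZO-1. They were taken as every probe set whose platform annotation names 1 of these genes alone, which gave 16 probe sets of 45101 on the Affymetrix mouse 430 2.0 array, or 9 of 18194 genes. RNA came from mice with the OMP-GFP allele, in which, as background, green fluorescent protein takes the place of olfactory marker protein, an abundant protein of mature olfactory neurons. Of the 6 arrays, 3 are labelled homozygous and 3 heterozygous for this allele, so both groups carry OMP-GFP, and an array from mice without it was not analysed here. The sources used here do not give strain, age, sex or the number of animals behind each RNA, so every p-value measures the spread between these samples.

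Tight junctions seal the space between neighbouring epithelial cells near their apical surface. Claudins are the membrane proteins that build the strands of the junction, and their mix sets which ions can pass between the cells. Occludin lies in the same strands, and ZO-1 ties claudins and occludin to the actin cytoskeleton beneath the membrane. In the olfactory epithelium these junctions join the supporting (sustentacular) cells to each other and to the dendrites of the olfactory neurons, and so part the mucus from the tissue below.

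The neighbouring genes Cldn4 and Cldn3 are shown by the 250 bases before their transcription start, since they lie next to each other among protein-coding genes and are the gene of the 9 with the largest difference between the groups and the brightest one. The sequences are from RefSeq (GRCm38.p6), read 5′ to 3′ on the strand of each gene, with matches to the E-box CAGGTG in capitals on either strand. The Cldn4 window is chr5:134946935-134947184 on the minus strand of chromosome 5 and the Cldn3 window is chr5:134985964-134986213 on the plus strand.
Cldn4: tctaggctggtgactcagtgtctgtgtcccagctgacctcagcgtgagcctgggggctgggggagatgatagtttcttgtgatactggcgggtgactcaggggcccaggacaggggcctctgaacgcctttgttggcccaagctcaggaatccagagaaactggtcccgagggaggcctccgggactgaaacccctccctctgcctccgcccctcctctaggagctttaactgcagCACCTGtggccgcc
Cldn3: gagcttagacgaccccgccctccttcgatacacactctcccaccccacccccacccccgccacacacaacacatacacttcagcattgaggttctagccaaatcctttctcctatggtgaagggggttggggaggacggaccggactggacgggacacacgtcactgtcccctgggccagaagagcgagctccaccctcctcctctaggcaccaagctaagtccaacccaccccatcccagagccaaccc
CAGGTG is the E-box bound by repressors of the Snail and Zeb families. It was found 1 time before Cldn4, as CACCTG starting 14 bases before the start site, and 0 times before Cldn3. Of 32851 such windows over all genes, 17.2% held it. The motif AACCNGTT of Grainyhead-like factors, which activate epithelial junction genes, was in neither window and in 1.79% of all windows. Of the 9 genes, 8 had at least 1 window, 11 windows in all, of which 3 held the E-box and 1, that of Cldn5, the Grainyhead-like motif. A match in these letters is a description and not a binding site.

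The arrays were compared first at genes that mark the tissue and its neighbours. The median signal per array lay between 147.9 and 163.7. The sustentacular markers Cyp2g1 and Cbr2 read at least 17796 and 22699 on every array, the basal cell keratin gene Krt5 662 to 792 and the gland gene Bpifa1 at least 27464. Markers of keratinised squamous epithelium were dim, with Krt13 between 6.2 and 22.1 and Flg between 0.7 and 22.8. The Omp probe set 1422199_at read 5.7 to 31.3 in the homozygous arrays, 26.3 in the library labelled heterozygous 1, and 4664 and 9143 in heterozygous 2 and 3, while 1422200_at read 7918.5 to 8774 on all 6. At 1422199_at the library labelled heterozygous 1 thus lay among the homozygous arrays and against its label, while 1422200_at did not separate the groups. The position of both probe sets against the part of Omp that GFP replaces is not known here, and whether that label is right was not tested. If it is not, every comparison that holds this library mixes the genotypes. Values without it are therefore given below for the tested genes of the 9 and for part of the gene lists. The library labelled heterozygous 1 also stood apart in the myelin gene Mbp (7268.5 against 655 to 1038 elsewhere), heterozygous 3 in the neuronal gene Rbfox3 (791 against 49.5 to 184) and homozygous 1 in the red cell gene Slc4a1 (945.0 against 136.0 to 289). The differences of the 9 genes and the counts of the gene lists were therefore recomputed without each array in turn.

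**Figure D1:**
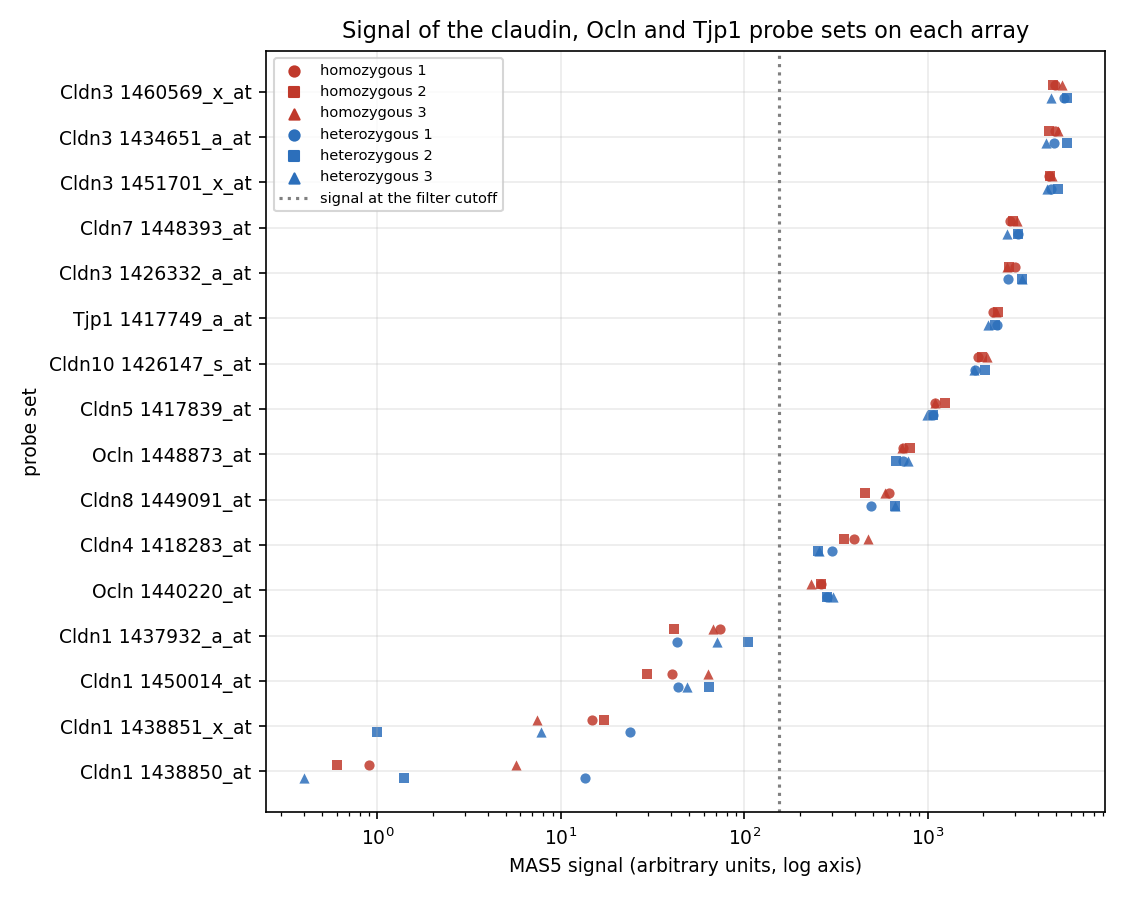
MAS5 signal (arbitrary units, log axis) of the 16 probe sets, in order of mean signal, with 1 point per array coloured by group and shaped by replicate number. The dotted line marks the signal of 154.6 at the cutoff for testing: 12 probe sets lie above it and the 4 of Cldn1 below. Cldn4 1418283_at is the row in which the homozygous points stand furthest to the right of the heterozygous ones.

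Signals of these genes ran from among the brightest on the array to among the dimmest. By mean signal, 7 of the 16 probe sets lay above the 90th percentile of all probe sets: all 4 of Cldn3, and those of Cldn7, Tjp1 and Cldn10. Among the 12 probe sets bright enough to be tested, the coefficient of variation over the 6 arrays ran from 4.5% (Tjp1) to 25.8% (Cldn4). The order of signals describes probe sets and not transcript amounts, since probe sets differ in how well they bind.

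Between the genotypes, Cldn4 alone among these genes passed an unadjusted p of 0.05, and none of them passed adjustment. Over the 22514 probe sets that entered the limma fit, 0 reached an adjusted p of 0.05, while 5.73% had an unadjusted p under 0.05, 3.34% higher and 2.4% lower in homozygous arrays. Among the 12 tested probe sets, which cover 8 of the 9 genes, these counts were 0 and 1, with that 1 higher. The limma adjusted p of the 12 lay between 0.859 and 0.992. The median log2 difference, homozygous minus heterozygous, was -0.02 over the 12 and 0.01 over all probe sets tested, with 5 of the 12 positive and 7 negative. For 11 of the 12, all but Cldn4, the 95% interval of the difference lay within 0.5 of 0 on the log2 scale. Groups did not overlap at 3 of the 12, Cldn4 and Cldn5 (higher in homozygous arrays) and 1 probe set of Ocln (lower), beside 10.9% of all probe sets tested (5.93% higher and 5.01% lower). Without the library labelled heterozygous 1, 0 of the 12 passed adjustment and 2, Cldn4 and 1 probe set of Cldn3, had an unadjusted limma p under 0.05, beside 7.06% of all probe sets tested. At 5 of the 12 the groups then did not overlap, beside 22.2%. In that fit Cldn7 was at 0.02, Tjp1 at 0.08, Cldn10 at 0.06, Cldn5 at 0.15 the Ocln probe sets at 0.06 and -0.19 and the other 3 Cldn3 probe sets at -0.04 each.

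**Figure D2:**
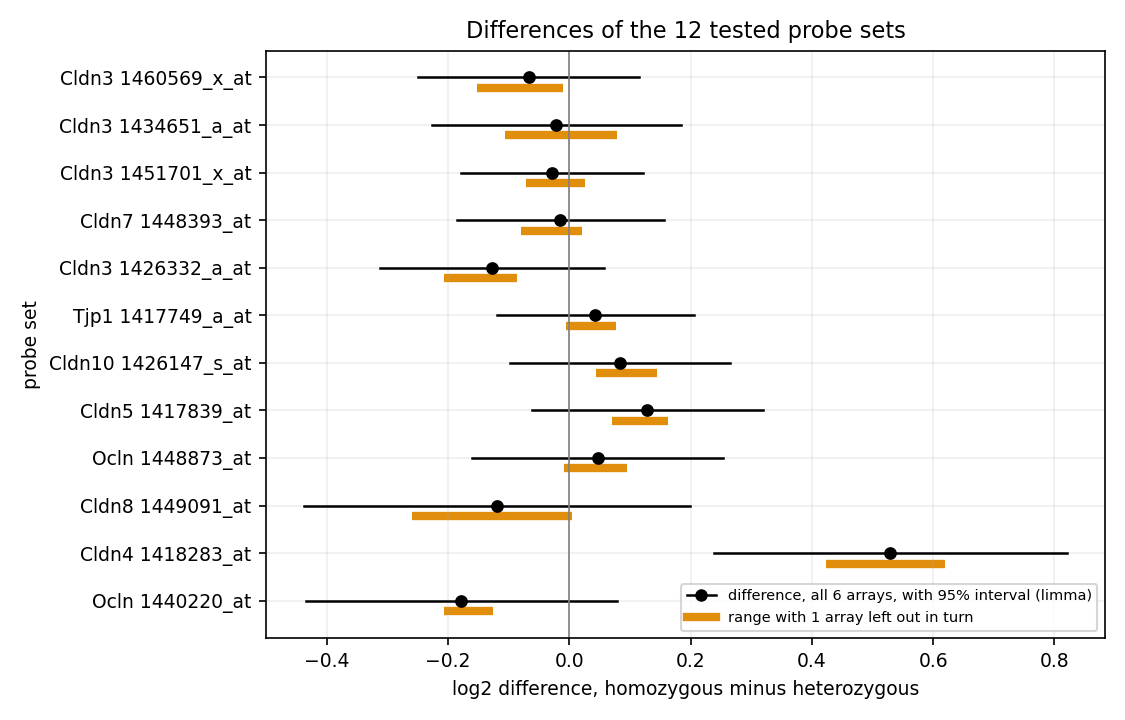
Log2 difference (homozygous minus heterozygous, on the log2(signal + 38.8) scale) of the 12 tested probe sets, as points with 95% intervals from limma (black, 3 arrays a group) and as the range when each array is left out in turn (orange). Cldn4 sits at 0.53 with an interval from 0.24 to 0.82, while the other 11 intervals include 0.

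Cldn4 encodes a claudin that tightens the junction against small cations, and with Cldn3 serves as a receptor for the enterotoxin of Clostridium perfringens. Its probe set 1418283_at read 393, 350.3 and 473 in homozygous 1, 2 and 3. It read 299, 251 and 253.5 in heterozygous 1, 2 and 3. Every homozygous array was above every heterozygous one, and homozygous 3 was the highest. The means were 405.5 ± 62.2 and 268 ± 26.7 (SD, n = 3 each), a difference of 0.53 ± 0.13 (SE) on the log2(signal + 38.8) scale, or 1.44-fold, with an unadjusted p of 0.00215 and an adjusted p of 0.859 in limma. A difference of at least 1.4-fold in either direction was seen at 1 of the 12 tested probe sets of the 9 genes, beside 0.782% of all probe sets tested. Cldn4 is singled out here as the largest difference of the 12. With 1 array left out the difference ran from 0.42 (without homozygous 3) to 0.62 (without homozygous 2). Leaving out heterozygous 1 gave 0.60 and a limma adjusted p of 0.327. That was the lowest adjusted p of Cldn4 with 1 array left out, and the highest was 0.9997, without homozygous 2. Its signal lies at the 64.5th percentile, nearer to the cutoff for testing than that of the other 5 tested claudins of the 9 genes.

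Cldn3, the neighbour of Cldn4 and also a sealing claudin, was the brightest gene of the set. Its probe set 1460569_x_at read 4923, 4836.5 and 5356 in homozygous 1, 2 and 3 and 5493, 5706 and 4686 in heterozygous 1, 2 and 3. These arrays overlapped, with a difference of -0.07 ± 0.08 (SE) and a limma adjusted p of 0.948. Single heterozygous arrays moved it: without heterozygous 2 it was -0.01, and without heterozygous 3 it was -0.15, without overlap and with an unadjusted p of 0.0420 and an adjusted p of 0.515 in limma. Without heterozygous 3, groups did not overlap at 26.8% of all probe sets tested, and 9.32% had an unadjusted limma p under 0.05. The probe sets 1434651_a_at and 1451701_x_at differed by -0.02 and -0.03. The x in such a name marks probes that may also bind other transcripts. The fourth, 1426332_a_at, was dimmer on every array. It read 2971, 2768.5 and 2689 in homozygous and 2745, 3239 and 3255.5 in heterozygous arrays, with heterozygous 1 among the homozygous values, and differed by -0.13 ± 0.08. Without the library labelled heterozygous 1 its groups no longer overlapped and it differed by -0.21, with an unadjusted p of 0.0217 and an adjusted p of 0.623 in limma. In that fit groups did not overlap at 22.2% of all probe sets tested, and 7.06% had an unadjusted limma p under 0.05. The 4 probe sets of Cldn3 thus spanned -0.13 to -0.02, beside 0.53 at Cldn4, and the contrast between the neighbours was not tested.

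Cldn7 and Cldn8 are further claudins of epithelia, the former known to bind the adhesion molecule EpCAM and the latter to act with claudin-4 in the kidney. The probe set of Cldn7 (1448393_at) read 2809, 2917 and 3069 in homozygous and 3113, 3086.5 and 2701.5 in heterozygous arrays. The groups overlapped fully, with a difference of -0.01 ± 0.08 (SE) and an interval from -0.19 to 0.16. Cldn8 (1449091_at) read 616, 456 and 587 in homozygous and 487, 663.5 and 665 in heterozygous arrays. Homozygous 2 and heterozygous 1 were low and the other 4 high, so its spread lay within the groups, and it differed by -0.12 ± 0.14. Without homozygous 2 this difference was 0.0046 and without heterozygous 1 it was -0.26, so its size rested on single arrays.

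Cldn1, a claudin needed for the barrier of the skin, was dim at all 4 of its probe sets. The brightest, 1437932_a_at, read 73.8, 41.1 and 67.5 in homozygous and 43.1, 104.2 and 70.9 in heterozygous arrays. 1450014_at read 29.4 to 64.0, 1438851_x_at 1.0 to 23.8 and 1438850_at 0.4 to 13.6 over the 6 arrays. The groups overlapped at each of them, and all 4 lay below the cutoff, so Cldn1 was not tested. Detection calls were not used here, so these signals are given as dim and not as absent.

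Cldn10 encodes a claudin whose variants form channels for cations or for anions. Its probe set 1426147_s_at has an s in its name, which marks probes shared by several transcripts, and which of those variants it reads is not known here. It read 1882, 1982 and 2106 in homozygous and 1800.1, 2041 and 1789 in heterozygous arrays. The groups overlapped through heterozygous 2, and the difference was 0.08 ± 0.08 (SE, limma adjusted p 0.923). It was 0.04 without homozygous 3 and 0.14 without heterozygous 2, where the groups no longer overlapped, beside 20.5% of all probe sets tested.

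Cldn5 is the main claudin of vessel walls, above all in the brain. Its probe set 1417839_at read 1088, 1242 and 1100.0 in homozygous and 1067.0, 1067 and 990.1 in heterozygous arrays. Every homozygous array was above every heterozygous one, though homozygous 1 exceeded the nearest heterozygous arrays by little. The means were 1143.5 ± 85.9 and 1041 ± 44.4 (SD, n = 3 each), a difference of 0.13 ± 0.09 (SE) with a limma adjusted p of 0.909. It was 0.07 without homozygous 2, and the groups overlapped once every array was shifted to 1 median. All 6 tested endothelial markers were also higher in homozygous arrays, by 0.18 to 0.44. Among them the endothelial receptor gene Kdr read 270 to 315 in homozygous and 182 to 244 in heterozygous arrays, and Egfl7 579 to 617 against 490 to 524. Over the 10 endothelial markers on the array the summed signal was 2536 to 2580.5 in homozygous and 2026 to 2133 in heterozygous arrays. The median difference of the 6 tested was 0.24, beside -0.00041 over all genes tested, and 2 of them had an unadjusted p under 0.05, beside 4.81% of all genes. Without the library labelled heterozygous 1 that median was 0.22. In that fit 1 of the 6 had an unadjusted limma p under 0.05, beside 7.06% of all probe sets tested. Without homozygous 1 as well, a choice made after seeing the data, these values were 0.17 and 0, beside 5.21%. None of the 6 passed adjustment, and their part in the reading of Cldn5 was not tested. Their signals lay low among those tested, from the 51.0th percentile (Vwf) to the 74.2nd (Egfl7). With the filter at the 75th percentile 0 of them were tested. In tissue RNA, more cells of a type and more RNA per cell cannot be told apart.

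**Figure D3:**
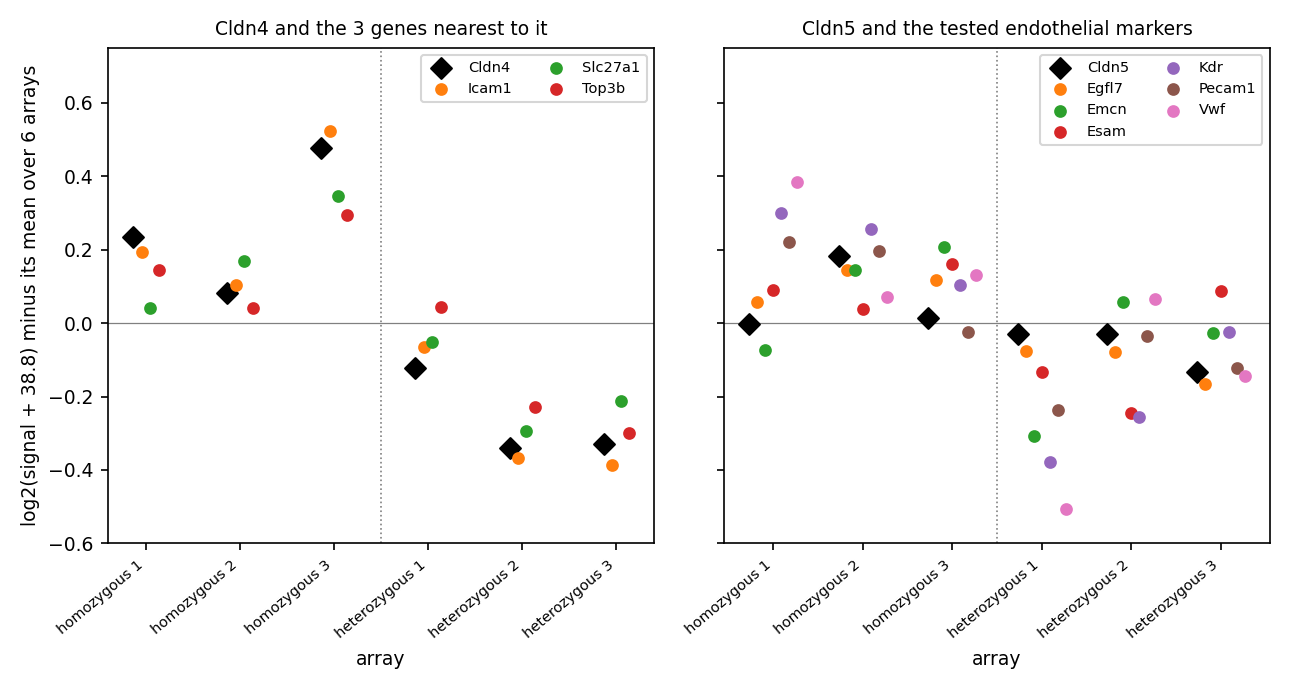
Log2(signal + 38.8) minus its mean over the 6 arrays, for Cldn4 with the 3 genes nearest to it (left) and Cldn5 with the 6 tested endothelial markers (right), with 1 point per gene and array and a dotted line between the groups. Cldn4 and Icam1 lie close together on every array. Cldn5 and Egfl7 span about 0.3 from lowest to highest array and the other 5 markers more, and the marker points are mostly above 0 in homozygous and below 0 in heterozygous arrays.

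Cldn4 had the widest range among the tested probe sets of the 9 genes, 0.82 on the log2 scale, and the genes whose centred values lay nearest to its own were sought among 11425 other genes. The nearest was Icam1, an adhesion molecule that leukocytes bind, at a Euclidean distance of 0.11 over 6 arrays. It was followed by the fatty acid transporter gene Slc27a1 at 0.29 and the topoisomerase gene Top3b at 0.29. Icam1 read 193.5, 179.5 and 253 in homozygous and 155, 119 and 117 in heterozygous arrays. With 6 arrays and so many genes this likeness is a description of these arrays.

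Ocln encodes occludin, a 4-pass membrane protein of the strands. Its brighter probe set 1448873_at read 728, 800.4 and 726 in homozygous and 735, 668.5 and 777 in heterozygous arrays. These groups overlapped, with a difference of 0.05 ± 0.09 (SE). The dimmer 1440220_at read 260.4, 262 and 231 in homozygous and 283, 281 and 303 in heterozygous arrays. Here every homozygous array was below every heterozygous one, with a difference of -0.18 ± 0.12 and a limma adjusted p of 0.903. The log2 gap between the probe sets was 1.36, 1.48 and 1.50 in homozygous 1, 2 and 3 and 1.27, 1.14 and 1.26 in heterozygous 1, 2 and 3, so the gap was larger in every homozygous array, by 0.23 on average. The gap was not tested, and without heterozygous 2 the brighter probe set was at -0.0089. Which transcripts of Ocln each probe set reads is not known here.

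Tjp1 was the steadiest of the genes. Its probe set 1417749_a_at read 2273, 2412 and 2347 in homozygous and 2387, 2319 and 2123 in heterozygous arrays. The groups overlapped, and the difference was 0.04 ± 0.07 (SE), with an interval from -0.12 to 0.21.

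The rest of the junction machinery was read from lists of related genes, each gene at its brightest tested probe set, where 4.81% of all 11426 genes had an unadjusted p under 0.05 (2.41% higher and 2.41% lower) and groups did not overlap at 10.3%. No gene of the 5 lists passed adjustment. Of the other claudins, 14 of 19 listed were on the array and 6 were tested, with 0 higher and 1 lower at an unadjusted p under 0.05 and a median difference of -0.02. That gene was Cldn23, which read 572, 448 and 715 in homozygous and 939, 774 and 624 in heterozygous arrays. The groups overlapped, and its difference of -0.41 ± 0.17 (SE) shrank to -0.25 when homozygous 2 was left out and to -0.27 when the library labelled heterozygous 1 was, with an unadjusted limma p between 0.00687 and 0.162 when 1 array was left out. The bright claudins Cldn9 and Cldn12 differed by -0.05 and -0.10, and Cldn2, a cation channel claudin, by 0.04. The 3 heterozygous arrays of Cldn12 read 2587 to 2732.5 and the homozygous ones 2380.0 to 2577. The groups of Cldn12 did not overlap, by a narrow margin.

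Of the other membrane proteins of the junction, 11 were tested, with 0 at an unadjusted p under 0.05 and a median difference of 0.03. F11r, which encodes the adhesion molecule JAM-A, read 2283 to 2363 in homozygous and 1984 to 2318.5 in heterozygous arrays, a difference of 0.08. Epcam, the partner of claudin-7, read 10220 to 10932 against 9752 to 10332, a difference of 0.06. Jam2 differed by 0.19 and Ildr1, a protein of the corners where 3 cells meet, by -0.12.

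Among proteins of the plaque and of apical polarity, 18 were tested, with 1 higher and 0 lower at an unadjusted p under 0.05 and a median of -0.04. Cgnl1 (paracingulin) read 568.5, 533 and 505.5 in homozygous and 380, 459 and 417 in heterozygous arrays, without overlap, and differed by 0.33 ± 0.11 (SE, limma adjusted p 0.859). Cingulin, its relative, which binds ZO-1 and is encoded by Cgn, read 649, 594 and 587 against 524, 454 and 579, also without overlap, and differed by 0.22 ± 0.11 (limma adjusted p 0.887). The difference of Cgnl1 ran from 0.27 (without the library labelled heterozygous 1) to 0.39 (without heterozygous 2), and that of Cgn was 0.14 without heterozygous 2. Tjp3 differed by -0.17, Magi1 by -0.19, and the bright Ybx3 and Magi3 by -0.08 and -0.03.

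Adherens junctions, which lie just below tight junctions, were read by 11 tested genes, with 0 at an unadjusted p under 0.05 and a median of -0.0028. Ctnnb1, which encodes beta-catenin, differed by 0.03, Ctnna1 by -0.07, Cdh2 by -0.07, Vcl by 0.07 and Nectin4 by 0.27 ± 0.19 (SE). Of transcription factors that act on epithelial junction genes, 8 were tested, with 2 higher and 0 lower at an unadjusted p under 0.05 and a median of 0.10. Zeb2, a repressor of the E-cadherin gene, read 499.5, 494 and 550.3 in homozygous and 332, 297 and 410.3 in heterozygous arrays, a difference of 0.53 ± 0.12 (SE, limma adjusted p 0.849). Elf3, an epithelial factor, read 780.2, 694.5 and 738 against 618, 667 and 587, a difference of 0.23 ± 0.09 (limma adjusted p 0.859). The groups overlapped at neither gene. Another tested probe set of Zeb2 differed by 0.14, and the unadjusted limma p of Elf3 ran from 0.0253 to 0.116 with 1 array left out. Without the library labelled heterozygous 1 the brighter probe set of Zeb2 was at 0.51 and Elf3 at 0.22. Snai1 differed by -0.22 and the brighter Snai2 and Grhl1 by 0.10 and -0.08.

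**Figure D4:**
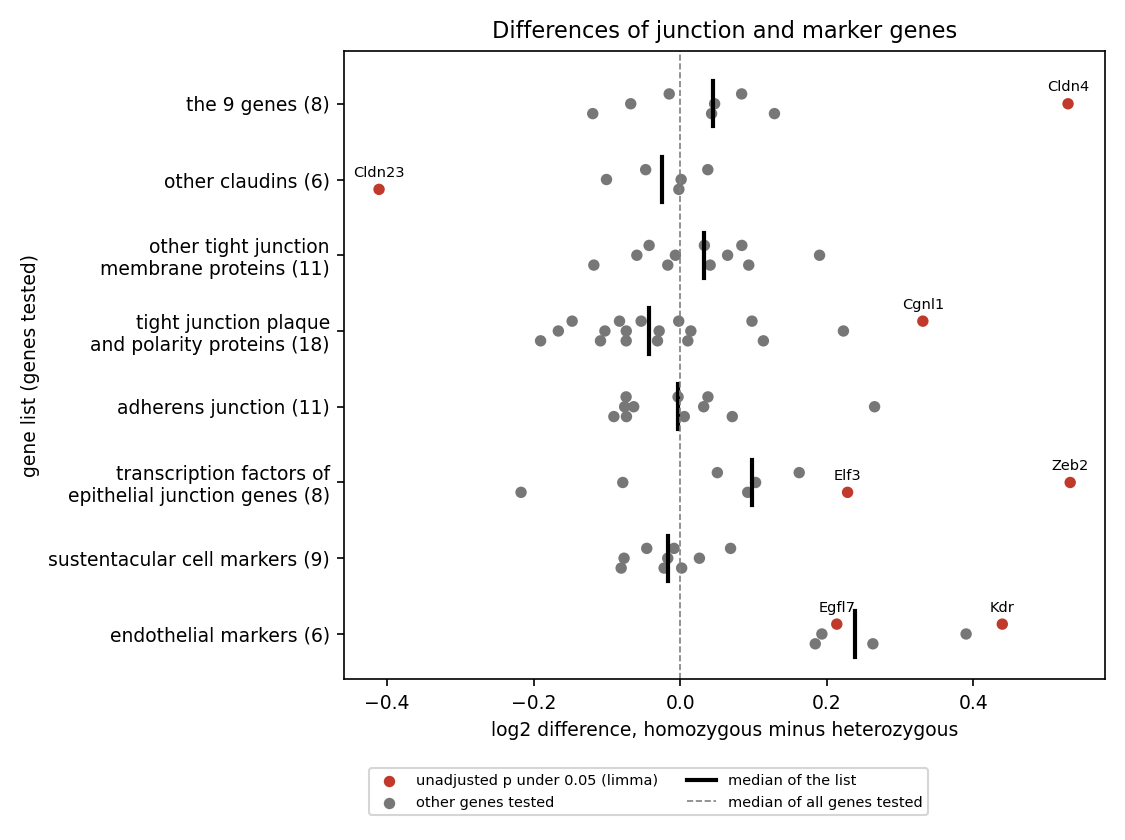
Log2 difference (homozygous minus heterozygous) of each tested gene of the junction lists and of sustentacular and endothelial marker lists, at its brightest probe set, with list medians as black bars and the number of genes in brackets. Points in red have an unadjusted p under 0.05 in limma and are named, and 0 of the genes shown passed adjustment. The dashed line is the median of all genes tested, beside which the endothelial markers all lie to the right.

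Markers of other cell types were set beside the reading of Cldn4. The 9 sustentacular markers had a median difference of -0.02, and their summed signal overlapped between homozygous (67830 to 72100) and heterozygous (66902 to 71196) arrays. Summed basal cell markers, 1728.0 to 1897 against 1770.5 to 1904, and gland markers, 97981 to 102525 against 88364 to 106192, overlapped as well. Summed markers of ciliated respiratory cells did not overlap, at 8172.5 to 8812 in homozygous and 7671 to 8110 in heterozygous arrays, but did without Rfx3, at 4712 to 5273 and 4682.0 to 5001. Of the 7 ciliated markers tested 6 had a positive and 1 a negative difference, with a median of 0.10. The negative one was Foxj1, the master regulator gene of motile cilia, at -0.13 ± 0.13 (SE). Of the 7, 1 was higher at an unadjusted limma p under 0.05, beside 2.41% of all genes. Summed macrophage markers were 6842 to 7415.5 and 6529 to 6820, without overlap. Of 8 macrophage markers tested 4 were higher at an unadjusted p under 0.05, beside the same 2.41%. That count was 1 without homozygous 3 and 1 with arrays shifted to 1 median. Summed neutrophil markers overlapped, at 8503 to 12920 against 8912 to 9671, with 3 of 5 tested higher at an unadjusted p under 0.05, beside the same 2.41%. That count was 0 of 4 without homozygous 1, the array high at Ngp and Camp, and 0 of 5 without the library labelled heterozygous 1. In those fits 3.99% and 7.06% of all probe sets tested had an unadjusted limma p under 0.05 in either direction. In limma 0 of the ciliated, macrophage and neutrophil markers passed adjustment. The part of these cells in the reading of Cldn4 was not tested. Summed squamous markers were 1537 to 1633 in homozygous and 1631 to 1657 in heterozygous arrays, with 2 markers bright enough to be tested.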

How the data were processed

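RNA of olfactory epithelium from OMP-GFP mice was hybridised to 6 arrays with a biotin label, per the labels. The table holds the linear intensity (signal) that the authors deposited for each probe set, made with MAS5 per the submitters' processing notes, in a version and with settings not given in the sources used here. Each array already had a 2% trimmed mean of 500, so no further scaling was applied. The platform annotation gave a single gene to 34958 of 45101 probe sets, which alone were named here, more than 1 gene to 932 and no gene to 9211. No 2 arrays shared more than 101 identical values.

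Values were analysed as log2(signal + 38.8), the 25th percentile of all values, which understates fold changes where signal is low. Probe sets with a mean at or above the median were tested after 64 controls were set aside, and they were fitted together with limma 3.58.1 (R 4.3.3; lmFit, eBayes with an intensity trend, Benjamini-Hochberg adjustment at 0.05). Intervals are 95% from the same fit. The median SE was 0.11, and the number of arrays limits precision. The fit was tested on simulated data. Alternatives were other offsets, scalings, filters and variance models, a replicate block and arrays left out. The 9 genes and the gene lists were chosen with earlier results of these data known. Named were every probe set of the 9 genes, Omp, and from each junction list the up to 4 genes of lowest p and the 2 brightest, with the 3 genes nearest to the gene of the 9 with the widest range. Genes of marker lists were named as levels. A protein sequence table was not used here.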

Additional observations from a re-analysis of the deposited data

How the results depend on the processing

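Over 16 alternatives none of the 12 probe sets of the 9 genes passed adjustment. Of 189 recomputed differences 176 kept their direction, among them all of Cldn4, Cldn5, Ocln 1440220_at, Cldn3 1426332_a_at and Cldn3 1460569_x_at. The filters, the intensity trend and the replicate block cannot change a difference, so under those alternatives the direction was kept by construction. The number of all probe sets that passed adjustment was 1 with the pooled median as offset, 0 to 25 with 1 array left out, 27 without the libraries labelled heterozygous 1 and 3, and 19 without homozygous 1 and the library labelled heterozygous 1, an alternative chosen after seeing the data. In the same order, for probe sets of the 9 genes, the count at an unadjusted p under 0.05 was 1 to 2 with 1 array left out, 4 and 3, beside 3.33% to 9.32%, 9.89% and 5.21% of all tested. The count whose groups do not overlap was 3 to 5, 10 and 6, beside 17.9% to 26.8%, 56.5% and 33%, since fewer arrays overlap less often by construction. With the filter at the 75th percentile these counts were 0 and 1 of 9, beside 5.2% and 10.4% of all tested, since Cldn4, Cldn8 and Ocln 1440220_at were no longer tested. The number above the 90th percentile of signal was 7 throughout, which the filters, the trend and the block could not change. The gap between the Ocln probe sets, 0.23, was 0.19 to 0.27 with 1 array left out and 0.30 without heterozygous 1 and 3. Differences near 0 changed sign, and the cause was not tested: with 1 array left out Cldn7 ran from -0.080 to 0.021, Cldn8 from -0.26 to 0.0046, Tjp1 from -0.0057 to 0.077, Ocln 1448873_at from -0.0089 to 0.094, Cldn3 1434651_a_at from -0.11 to 0.079 and Cldn3 1451701_x_at from -0.071 to 0.026. Quantile normalization turned Cldn7 to 0.0041 and Cldn3 1451701_x_at to 0.0012. Cldn10 was -0.038 without heterozygous 1 and 3, and Cldn7 0.051 without homozygous 1 and heterozygous 1. Of all probe sets at an unadjusted p under 0.05, 58.2% were higher in homozygous arrays as deposited and 29.1% with arrays shifted to a common median. Arrays with the same replicate number did not deviate together (residual correlations 0.02, -0.12 and -0.05), so the numbers were not taken as pairs. With the replicate block 0 of all probe sets and 0 of the 9 genes passed adjustment. Cldn4 was again the only one of the 9 genes at an unadjusted limma p under 0.05, beside 4.91% of all probe sets tested. The block enters neither the signals nor their ranking. The 3 probe sets without overlap and the 7 above the 90th percentile were therefore the same by construction.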

Other observations

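Cldn13, a claudin of mouse blood-forming cells, lay below the cutoff for testing on its mean but stood out on 1 array. It was singled out after its values were seen. It read 273.7 in homozygous 1, against 121.9 and 145.1 in homozygous 2 and 3 and 70.0, 119.5 and 85.7 in heterozygous 1, 2 and 3. Homozygous 1 was also the highest array at the red cell genes Alas2 (616 against 169 to 344.5), Slc4a1 (945.0 against 136.0 to 289) and Rhag (152.6 against 18.4 to 46.0), and at the marrow granule genes Ngp (644.0 against 202 to 285) and Camp (339.5 against 92.5 to 170). At Ltf, another gene of the neutrophil list, homozygous 1 was not the highest (5625 against 4908.5 to 8210). The epithelial claudins did not stand out in homozygous 1, with Cldn3 1460569_x_at at 4923 and Cldn7 at 2809 within the range of the other arrays.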
